A study of Triticum aestivum with 24 samples.

Results

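The 200 probe sets described here were chosen from 61179 wheat probe sets of an Affymetrix array for a high signal in infested seedlings of the line Newton at 24 h and a flat signal in infested seedlings of the line Molly. Signals under 85 were raised to 85, log2 values were averaged over the arrays of a group, and a change is the mean of an infested group minus the mean of the uninfested group of its line. The 46243 probe sets whose Molly changes at 6, 12 and 24 h all lay between -0.5 and 0.5 were kept, and the 200 with the highest Newton change at 24 h are the members. Those 4 changes therefore chose the members and are given below as a description, with no test.

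Molly, with the resistance gene H13, forms an incompatible interaction with the larvae, whereas the susceptible line Newton forms a compatible one. Seedlings at the stage with a pair of leaves received the eggs of 10 mated females for every 10 plants, and 1.5 to 2 cm of the second leaf sheath, where larvae feed, was taken for total RNA. The 8 groups, with 3 arrays each and 24 in all, were infested Newton at 6, 12 and 24 h after egg hatch, infested Molly at the same times, and sheaths of each line without larvae at 12 h alone. All plants grew at 20 °C by day and 18 °C by night with 14 h of light, and the labels do not say whether larvae were taken off before extraction. Because uninfested sheaths were taken at 12 h alone, infestation cannot be told apart from plant age and time of day in the changes at 6 and 24 h. The infested replicates are called biological and the uninfested ones are only numbered, so the spread among the latter may be technical.

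Hessian fly larvae settle at the base of a leaf sheath and inject saliva into the epidermis. In a susceptible wheat plant the attacked cells become a nutritive tissue that feeds the larvae, and growth of the seedling is stunted. In a plant with a matching resistance gene the larvae are recognised early and die without forming such a tissue. Transcripts that differ from uninfested plants in the susceptible line alone are those of interest for the compatible interaction.

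Some arrays stood apart, and this bears on most values below. Over the members, the median log2 signal minus the uninfested mean of Newton was 0.77, 1.06 and 0.22 on the 12 h replicates 1, 2 and 3, and 0.59, 0.59 and 0.90 on the 6 h replicates. Replicate 3 was the lowest 12 h array for 163 of the 200 members and replicate 3 was the highest 6 h array for 145. The shares of all probe sets for these 2 counts were not computed. Newton 12 h replicate 3 correlated with the uninfested Newton arrays at r = 0.945 to 0.948 over log2 signals of tested probe sets, against 0.944 to 0.945 for replicate 1 and 0.925 for replicate 2. Among the Newton 12 h arrays r was 0.967 for replicates 1 and 2, 0.963 for 1 and 3 and 0.951 for 2 and 3. Counts and medians over the members that use the 12 h group are given with and without Newton 12 h replicate 3. That array was picked after its values were seen. The changes from uninfested Newton were not given without replicate 2, the highest 12 h array, so leaving an array out mostly raises them. The wheat 18S rRNA control probe sets had a mean signal of 6581 ± 1757 (SD, n = 3) in uninfested Newton, 1567 ± 459 at 6 h, 2444 ± 1173 at 12 h and 1548 ± 493 at 24 h. The lower 18S signal was also seen in infested Molly, where the log2 change was -1.48, -1.75 and -0.97 at 6, 12 and 24 h, against -2.07, -1.54 and -2.10 in Newton. The part of the 18S difference in the members' changes from uninfested sheaths was not tested. The green-tissue markers were PRK (phosphoribulokinase of the Calvin cycle) and OEE1 and OEE2 (oxygen-evolving proteins of photosystem II). They had group means between 3497 and 18282, so their transcripts were abundant in every group. ALP, the gene listed as a marker of seed storage and anther, had 4 probe sets. Of these, 1 had group means between 3661 and 4945, within the range of the green-tissue markers. The others had group means of at most 40.4. The tissue content of the samples was not tested.

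The changes that chose the members ran from a 24 h log2 change of 1.00 in Newton (2.00-fold) to 3.51 (11.4-fold). Their median was 1.23 (2.35-fold) and their quartiles were 1.08 and 1.47. A change of at least 1 was held by all 200 members (1.95% of all probe sets), which the choice fixes. A change of at least 1.5 was reached by 48 members and of at least 2 by 14, so most members lay close to the lower limit. The last members inside the limit were Ta.2726.2.A1_x_at and Ta.16986.1.A1_a_at, both at 1.00 to 2 decimals, and the first probe sets outside were Ta.8434.1.A1_at and Ta.28698.1.S1_at, also at 1.00, so the limit falls within a continuous range. In Molly the members' changes had a median of 0.06 at 6 h, 0 at 12 h and 0.06 at 24 h.

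Raising low signals to 85 shaped these values for the dimmer members. Background was read from 8 tag controls with no counterpart in wheat, whose median was 17.2 and whose highest signal reached 85 on 1 array. All 3 uninfested Newton arrays were under 85 for 32 members, whose 24 h change is therefore a lower bound, and none was for 138. Every Newton 24 h array was at or above 85 for all 200 members. The median member signal was 158 in uninfested Newton, 309 at 6 h, 307 at 12 h and 436 at 24 h, against 210 in uninfested Molly and 220, 218 and 204 in Molly at 6, 12 and 24 h. In bulk tissue, more cells that hold a transcript and more transcript per cell cannot be told apart.

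By array, the members' median log2 signal minus the uninfested mean of Newton was 1.23, 1.31 and 1.19 at 24 h. The Molly arrays all had medians between 0 and 0.05, on the same scale against uninfested Molly. The medians of the 3 Newton 24 h arrays were closer together than those of the 6 h and 12 h arrays. The choice used the 24 h arrays and favours high values on all 3 of them, so their closeness does not measure array quality. In left-out arrays, described below, the median 24 h change was 1.08, 1.21 and 1.00. All 3 Newton 24 h arrays exceeded all 3 uninfested Newton arrays for 200 members (18.5% of all probe sets do so) and exceeded all 12 Molly arrays for 175 (4.66% of all probe sets), counts that the choice of members largely fixes.

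**Figure D1:**
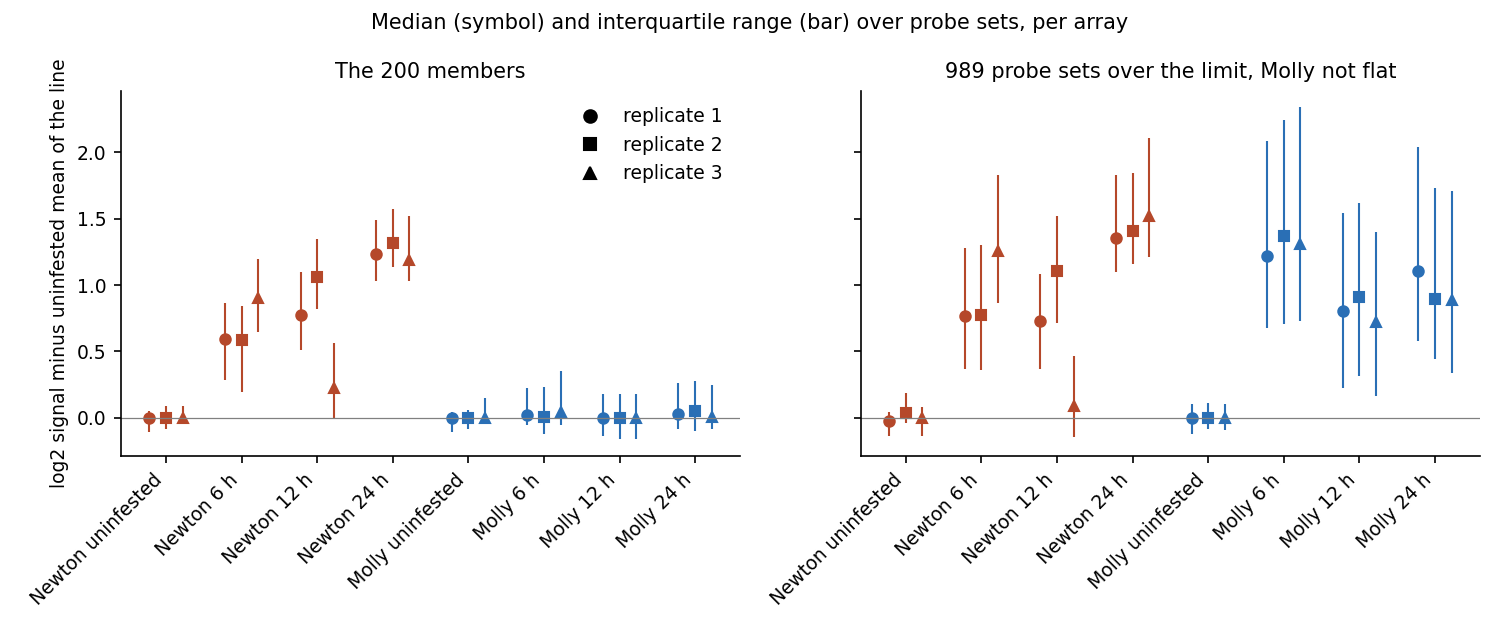
Median (symbol) and interquartile range (bar) over probe sets of the log2 signal minus the mean of the uninfested arrays of the same line, for each of the 24 arrays, with Newton in red and Molly in blue. The left panel holds the 200 members, whose medians are 1.19 to 1.31 on the Newton 24 h arrays, 0.22 on Newton 12 h replicate 3 and 0 to 0.05 in Molly; the right panel holds the 989 probe sets at or over the same 24 h limit whose Molly changes left the bound.

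Most members were already higher than in uninfested Newton before 24 h, so most are not transcripts that appear at 24 h alone. What sets them apart by the rule is the flat signal in Molly. The comparisons of 6, 12 and 24 h with uninfested Newton share the same 3 uninfested arrays. Their values are therefore set side by side and not tested against each other. Those 3 arrays also helped to choose the members, which favours low values there and so raises the early changes. In left-out arrays, described below, the median 6 h change was 0.55, 0.49 and 0.69, and the median 12 h change 0.66, 0.99 and 0.05. The 6 h change of the members ranged from -0.48 to 3.32 with a median of 0.66 and quartiles of 0.43 and 0.90, and 135 members had a change of at least 0.5 (4.8% of all probe sets). A 6 h change of at least 1 was found for 38 members (0.945% of all probe sets), and without Newton 6 h replicate 3 for 25 (0.768%), with a median of 0.55.

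At 12 h the change ranged from -0.13 to 2.83 with a median of 0.70 and quartiles of 0.48 and 0.95, and 146 members had a change of at least 0.5 (5.46% of all probe sets). The change was at least 1 for 35 members (0.693% of all probe sets). Without Newton 12 h replicate 3 the range was -0.12 to 2.78, the median 0.90 and the quartiles 0.70 and 1.17, 177 members had a change of at least 0.5 (6.93%) and 78 had a change of at least 1 (1.19%). The median change over all probe sets was 0 at all 3 times, where many signals sit at the floor. Over tested probe sets it was 0.02, 0.02 and 0.01 at 6, 12 and 24 h.

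All 3 Newton arrays at 6 h exceeded the 3 uninfested ones for 143 members (14.7% of all probe sets), and at 12 h for 106 (14.6%). With replicates 1 and 2 alone, the 12 h arrays did so for 181 members (22.5%). All 3 Newton arrays at 6 h exceeded all 12 Molly arrays for 59 members (2.71% of all probe sets) and those at 12 h for 43 (3.44%), or for 115 (6.07%) with 12 h replicates 1 and 2 alone. The uninfested and Molly arrays in these counts helped to choose the members, so the counts are a description. Both early changes were at least 1 in 19 members and both were under 0.5 in 29, or in 28 and 11 members without Newton 12 h replicate 3. For 76 members both early changes were at least 0.5 times the 24 h change, and for 52 both were under that, or 92 and 21 without that array. The members therefore hold both early and late changes, and 29 had both early changes under 0.5 with all arrays, or 11 without that array. The shares of all probe sets with these patterns were not computed, so the counts describe the members alone.

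Within infested Newton, 183 members had their highest group mean at 24 h (21.4% of all probe sets), 11 at 6 h (16.6%) and 6 at 12 h (21.3%), and the 24 h mean is a value that chose them. Without Newton 12 h replicate 3 these counts were 173 (20.3%), 10 (18.4%) and 17 (20.2%). From low to high the means had the order 6, 12, 24 h for 103 members (8.98%) and the order 12, 6, 24 h for 80 (10.5%). Without that array the counts were 127 (9.21%) and 45 (8.98%). The order of the 6 h and 12 h means therefore depended on that array for many members. Probe sets at the floor at all 3 times have equal means and count in none of these shares. The 24 h mean exceeded the 6 h mean by a median of 0.57 and the 12 h mean by 0.58, or by 0.37 without Newton 12 h replicate 3. All 3 arrays at 24 h exceeded all 3 at 6 h for 127 members (9.44% of all probe sets) and all 3 at 12 h for 82 (9.84%), or replicates 1 and 2 of 12 h for 84 (14.3%). These counts use the 24 h arrays that chose the members and are a description.

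**Figure D2:**
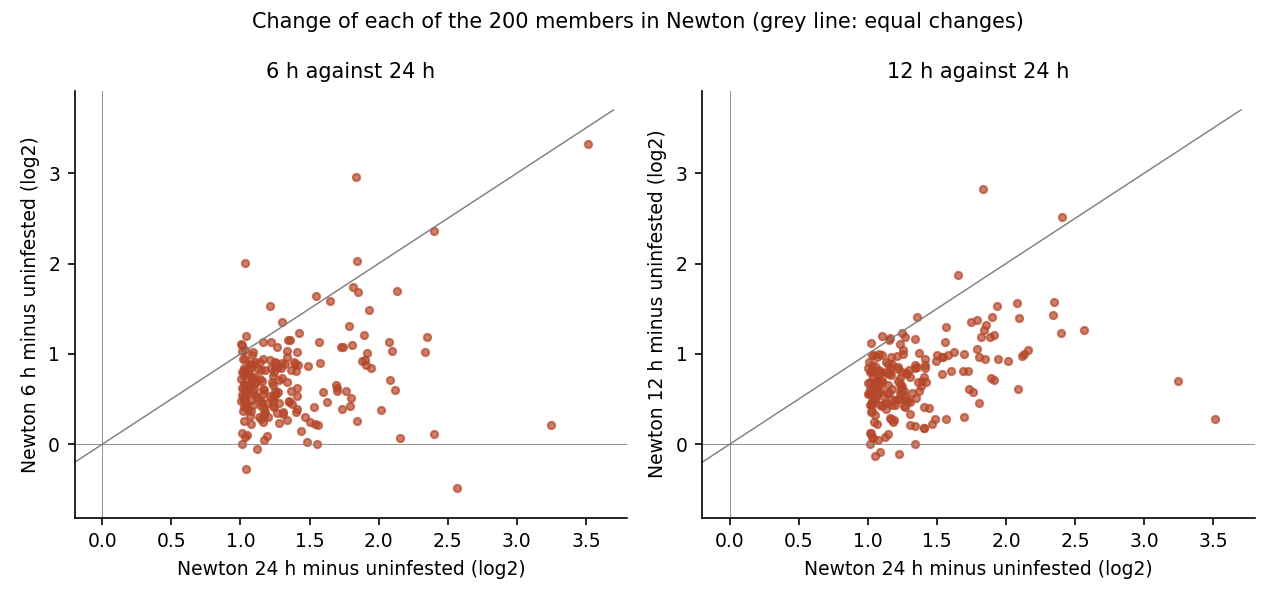
Log2 change from uninfested Newton at 6 h (left) and at 12 h (right) against the change at 24 h, each point being 1 of the 200 members and the grey line marking equal changes. Most points lie above 0 and below the line; the member at a 24 h change of 3.51 has 3.32 at 6 h and 0.28 at 12 h.

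Because the 24 h values chose the members, the choice was repeated 3 times without the arrays of 1 replicate number in all groups, and the changes were then read from the left-out arrays, which hold 1 array per group. The choices without replicate 1, 2 and 3 shared 141, 137 and 131 probe sets with the members. In the left-out arrays the median 24 h change in Newton was 1.08, 1.21 and 1.00, and it was above 0 for 197, 193 and 185 of 200 probe sets (30.4%, 29.6% and 26.6% of all probe sets). It was at least 1 for 108, 131 and 100 of them, against 2.73%, 2.56% and 2.79% of all probe sets. Probe sets under 85 on both arrays have a change of 0, which lowers the share of all probe sets above 0. For each of the 3 choices the 24 h difference was thus present in the arrays left out of it. This holds for the newly chosen probe sets, of which 131 to 141 were members. The rule was applied with earlier results of all these arrays known, so the left-out arrays are not fully independent of it.

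In the same left-out arrays the median 6 h change was 0.55, 0.49 and 0.69, and at least 1 for 29, 36 and 48 probe sets (1.58%, 1.13% and 2.22% of all). The median 12 h change was 0.66, 0.99 and 0.05, and at least 1 for 54, 96 and 8 probe sets (1.48%, 2.15% and 0.871%). The value of 0.05 comes from Newton 12 h replicate 3, where the left-out probe sets sat near the uninfested level. The medians of the Molly changes were between 0 and 0.10. The left-out values come from single arrays, and uninfested replicates are only numbered, so no p-value is given.

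**Figure D3:**
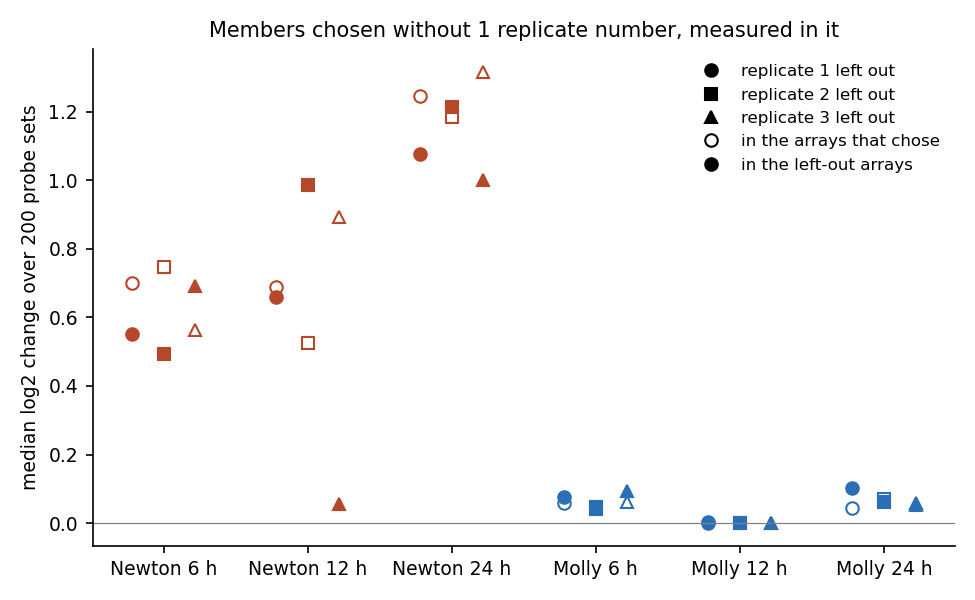
Median log2 change over 200 probe sets chosen without 1 replicate number, in the arrays that chose them (open symbols) and in the left-out arrays (filled), for the 6 infested groups. The filled 24 h symbols of Newton lie at 1.00 to 1.21, the filled Newton 12 h symbol of replicate 3 at 0.05, and the Molly symbols between 0 and 0.10.

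The 1 comparison among these groups that had no part in the choice is infested Newton at 12 h against infested Newton at 6 h, which asks whether members differed between the early times. It was fitted across all 36707 tested probe sets with limma. Of the 199 tested members, 0 were higher at 12 h and 3 were lower at an adjusted p under 0.05, against 374 (1.02%) higher and 542 (1.48%) lower of all tested probe sets. At an unadjusted p under 0.05, 14 members were higher and 20 lower, against 6.82% and 6.9% of tested probe sets. Without Newton 12 h replicate 3 these were 52 higher and 11 lower, against 6.97% and 6.6%. With all arrays the share of tested members called lower at the adjusted threshold was 1.51%, near the background of 1.48%. At the unadjusted limit the share of members that were lower was above the background. The median change of the members was 0.045, against 0.0125 for all tested probe sets. All 3 arrays at 12 h lay above all 3 at 6 h for 6 members (6.72% of all probe sets) and below them for 13 (6.76%). With 12 h replicates 1 and 2 alone these counts were 53 (12.1% of all probe sets) and 15 (11.7%).

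Leaving out arrays moved these counts. Without Newton 12 h replicate 3, 12 of the members were higher (0.885% of tested probe sets) and 1 was lower (1.34%), and the median change of the members was 0.27; without Newton 6 h replicate 3, 2 were higher. Without Newton 6 h replicate 1, 1 was lower, and without Newton 12 h replicate 2, 5 were lower. The 18S signal was 0.54 higher on the log2 scale at 12 h than at 6 h, and with it as a covariate the counts were 0 and 3.

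**Figure D4:**
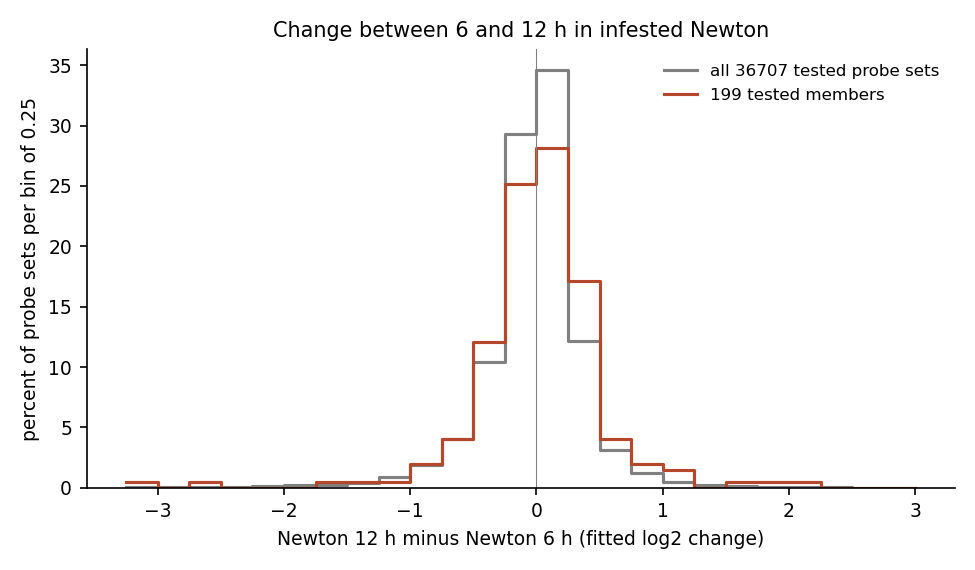
Distribution of the fitted log2 change from 6 h to 12 h in infested Newton, as the percent of probe sets per bin of 0.25, for the 199 tested members (red) and all 36707 tested probe sets (grey). Both centre near 0, with medians of 0.045 and 0.0125, and the most extreme member lies at -3.04.

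The members with the largest 24 h changes had different courses. Ta.30495.1.A1_s_at, the highest, had signals of 87.4, 85.4 and 98.0 in uninfested Newton, 807, 958 and 948 at 6 h, 102, 152 and 84.7 at 12 h and 936, 1077 and 1082 at 24 h. Its Molly arrays lay between 84.0 and 183. The signal was high on every array of 6 h and 24 h and low on every array of 12 h, with no overlap, and the 12 h arrays overlapped with the uninfested ones. From 6 to 12 h it fell by 3.04 on the log2 scale (SE 0.26, limma adjusted p = 1.05e-07). That fall was past the threshold in every setting tried, without Newton 12 h replicate 3 included. This probe set is paired with no gene in the array's annotation.

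Ta.16912.1.S1_at, ranked 4, had signals of 31.2, 121 and 48.7 in uninfested Newton. It had 482, 412 and 596 at 6 h, 595, 530 and 512 at 12 h and 386, 438 and 765 at 24 h. The infested Newton arrays stood apart from the uninfested ones at all 3 times and overlapped with each other, and Newton 12 h replicate 3 was close to the other 12 h arrays. Its Molly arrays lay between 17.9 and 70.5, all under 85, and its changes in Newton were 2.36, 2.51 and 2.40 at 6, 12 and 24 h. It was high at 6 h and stayed so.

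Ta.1165.1.A1_at, ranked 2 and paired with the locus LOC542946, had most of its change between 12 h and 24 h. Its signals were 55.9, 40.8 and 49.0 in uninfested Newton, 64.1, 50.7 and 131 at 6 h and 169, 183 and 74.2 at 12 h. At 24 h they were 1166, 564 and 800. The 24 h arrays stood above every other array, the 12 h arrays lay above the uninfested ones, and the 6 h and 12 h arrays overlapped. The 24 h change was at least 9.50-fold, since the uninfested arrays were under 85, and the Molly arrays lay between 18.1 and 72.9.

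Ta.10237.1.S1_at and Ta.10237.2.S1_at, ranked 3 and 5, share a cluster number in their names and had like courses. The former had 185, 217 and 199 in uninfested Newton, 57.5, 121 and 285 at 6 h, 800, 1431 and 96.4 at 12 h and 1041, 1156 and 1376 at 24 h. Its 6 h values straddled the uninfested level, and the 12 h values were high on replicates 1 and 2 and low on replicate 3. The latter had 68.0, 6.2 and 70.6 in uninfested Newton, 28.7, 22.1 and 108 at 6 h, 254, 371 and 58.8 at 12 h and 389, 526 and 439 at 24 h. Neither change from 6 to 12 h passed the threshold (limma adjusted p = 0.125 and 0.172). With signals under 85 raised to 85, since 3 of their 6 values at 6 h were under it, the changes were 1.75 (SE 0.65, adjusted p = 0.194) and 1.12 (SE 0.34, adjusted p = 0.0944). Without Newton 12 h replicate 3 both passed it, with limma adjusted p = 0.000142 and 0.0499. TaAffx.40606.1.S1_at, ranked 6, had 85.7, 118 and 85.2 in uninfested Newton, 216, 198 and 238 at 6 h, 306, 541 and 137 at 12 h and 496, 449 and 511 at 24 h. Here too the 12 h replicate 3 was the lowest of the 12 h arrays, and the 24 h arrays lay above those of 6 h without overlap.

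**Figure D5:**
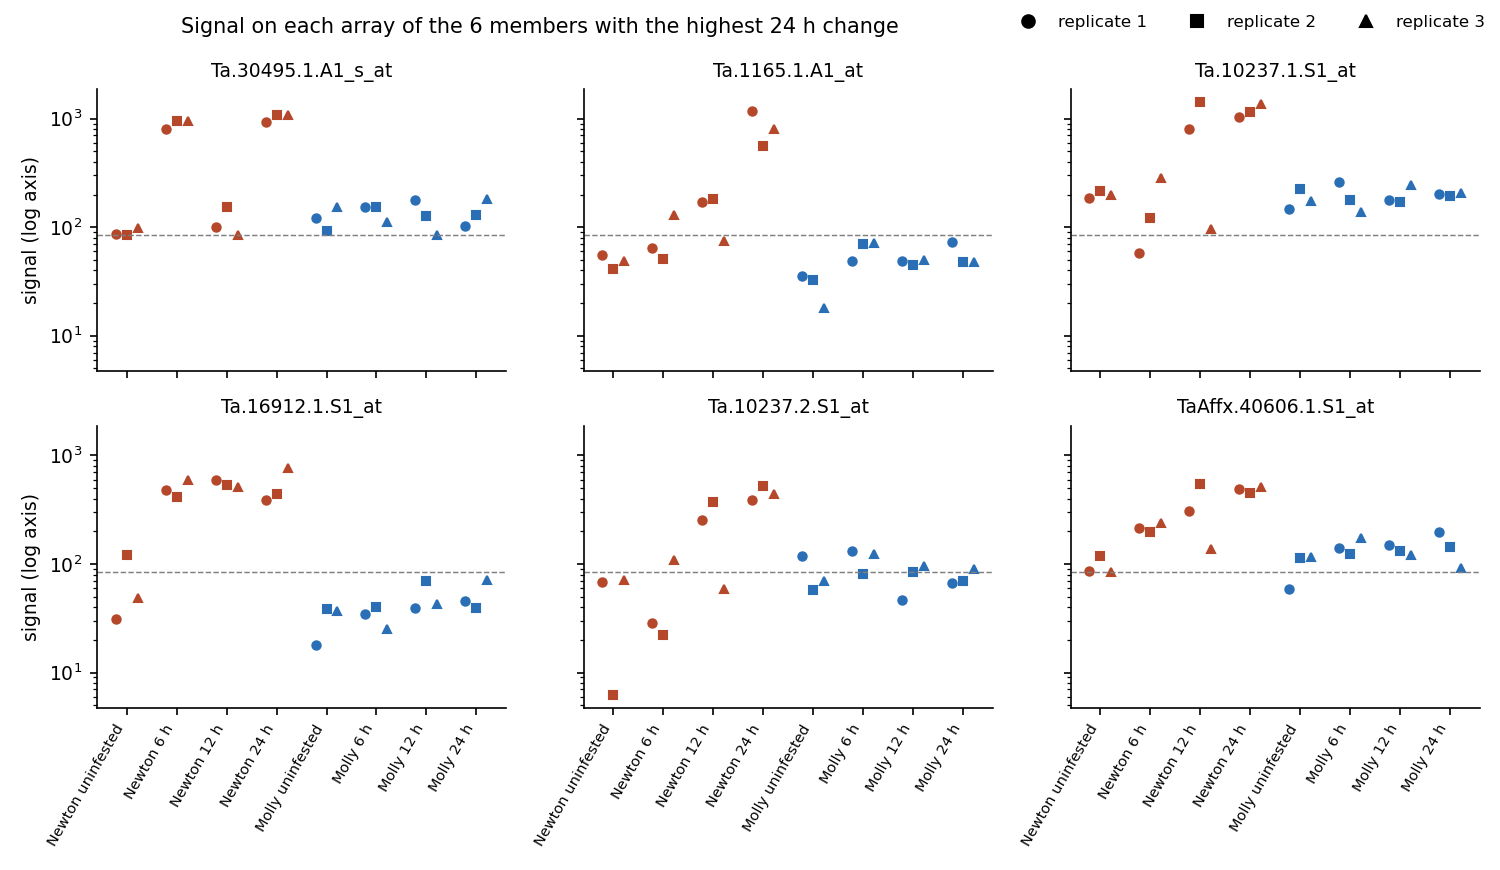
Signal on each of the 24 arrays, on a log axis, of the 6 members with the highest Newton 24 h change, with Newton in red, Molly in blue and the dashed line at 85. Ta.30495.1.A1_s_at is high at 6 h and 24 h and low at 12 h, Ta.16912.1.S1_at is high at all 3 times, and Ta.1165.1.A1_at is far higher at 24 h than at 6 h or 12 h.

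The other members that fell from 6 to 12 h were TaAffx.104994.1.S1_at and TaAffx.109327.1.S1_at. TaAffx.104994.1.S1_at had signals of 342, 469 and 308 in uninfested Newton, 1357, 973 and 894 at 6 h, 782, 681 and 526 at 12 h and 775, 837 and 954 at 24 h. It was above the uninfested arrays at all 3 times without overlap, with its highest mean at 6 h, and from 6 to 12 h it fell by 0.69 on the log2 scale (SE 0.18, limma adjusted p = 0.0415). It missed the threshold without Newton 12 h replicate 3 (adjusted p = 0.18), without Newton 6 h replicate 1 (0.25) or 2 (0.068), or without Newton 12 h replicate 2 (0.063). TaAffx.109327.1.S1_at, paired with LOC100037633, had 14.2, 21.8 and 59.6 in uninfested Newton, 195, 204 and 172 at 6 h, 18.1, 48.9 and 30.9 at 12 h and 245, 205 and 200 at 24 h. It shared the course of Ta.30495.1.A1_s_at at a lower level, with every 12 h array as dim as the controls without a wheat target, and fell from 6 to 12 h (limma adjusted p = 0.0311). With signals under 85 raised to 85 the fall was at least 2.23-fold (adjusted p = 1.9e-08). Its p rose to between 0.053 and 0.13 when any array of the 6 except Newton 12 h replicate 2 was left out.

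The array's annotation paired 12 of the 200 members with a gene, each known by a locus number alone, so no role is given for any of them, and 188 with none. Besides LOC542946 and LOC100037633, the largest 24 h change was that of Ta.2797.2.S1_x_at (LOC100037637), with 286, 281 and 335 in uninfested Newton, 580, 730 and 784 at 6 h, 649, 704 and 270 at 12 h and 1075, 1525 and 839 at 24 h. The infested arrays were above the uninfested ones except for 12 h replicate 3. Other probe sets of that locus, Ta.2797.3.S1_at and Ta.2797.3.S1_x_at, had 24 h changes of 0.73 and 0.76 and lay outside the Molly bound, with Molly changes of 0.61 and 0.51 at 6 h.

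The brightest of the annotated members was Ta.5818.1.S1_a_at (LOC780664), with a mean of 1942 ± 71.7 (SD, n = 3) in uninfested Newton, 3494 ± 177 at 6 h, 3160 ± 354 at 12 h and 4525 ± 330 at 24 h. Its 3 other probe sets had 24 h changes of 1.00, 0.85 and 1.20, and those at 1.00 and 1.20 were outside the Molly bound with 6 h changes of 0.53 and 0.64 in Molly. For this locus the separation from Molly is therefore a matter of a small margin, the member itself having a Molly change of 0.41 at 6 h. Ta.28697.2.S1_a_at (LOC543419) had a mean of 1179 ± 94.8 in uninfested Newton, 2238 ± 532 at 6 h, 2438 ± 376 at 12 h and 2808 ± 175 at 24 h. Its 6 h change of 0.90 was not far below the 24 h change of 1.25.

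Ta.5796.2.A1_at (LOC606345) had changes of 0.23 at 6 h and 0.04 at 12 h, against 1.07 at 24 h. Its signals were 862, 1003 and 928 in uninfested Newton, 1365, 1165 and 808 at 6 h, 910, 991 and 970 at 12 h and 2200, 2031 and 1672 at 24 h. The early arrays overlapped with the uninfested ones and the 24 h arrays lay above all of them. Another probe set of the same locus, Ta.5796.3.S1_a_at, had a 24 h change of 0.44, from 3271 ± 102 to 4432 ± 63.0.

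Ta.8296.1.S1_at (LOC543141), Ta.2773.1.S1_at (LOC542884), TaAffx.9231.2.S1_s_at (LOC100037634), TaAffx.24586.1.S1_at (LOC542958) and Ta.24114.7.A1_at (LOC100037526) had 24 h changes of 1.24, 1.23, 1.30, 1.17 and 1.17. Their 6 h changes were 0.80, 0.53, 1.35, 0.60 and 0.32. Ta.2781.1.S1_at (LOC542812), with 10.4, 13.8 and 9.2 in uninfested Newton and 198, 135 and 191 at 24 h, was the 1 member below the filter on low signals and so was not tested. Other probe sets of these loci had smaller 24 h changes, 0.57 for Ta.2773.2.S1_a_at, 0.29 for Ta.20568.1.S1_at of LOC542958, 0.86 for TaAffx.9231.2.S1_x_at and 0.06 for Ta.24114.7.S1_a_at. TaAffx.9231.2.S1_x_at lay outside the Molly bound, with a Molly change of 0.79 at 12 h, where the member TaAffx.9231.2.S1_s_at had 0.41. The floor of 85 largely set the change of Ta.24114.7.S1_a_at, with 15.0, 9.7 and 52.9 in uninfested Newton and 41.8, 95.9 and 40.3 at 24 h. Ta.2773.2.S1_a_at had 54.8, 30.2 and 118 in uninfested Newton, so its change is a lower bound. Probe sets of a locus can match different copies of a gene in the hexaploid genome, and which copy each reads was not analysed here.

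The members that were brightest in uninfested Newton had large signals throughout. TaAffx.70621.1.S1_at had a mean of 8237 ± 76.6 in uninfested Newton, 15443 ± 456 at 6 h, 12410 ± 2917 at 12 h and 18172 ± 460 at 24 h. Its Molly means of 11420 without larvae and 15819 at 6 h show that it was high in both lines, with a Molly change of 0.47. Ta.2678.1.S1_x_at had 5229, 5120 and 4788 in uninfested Newton and 10006, 10086 and 11315 at 24 h, whereas its 12 h arrays of 4812, 7273 and 2799 lay on both sides of the uninfested level. Ta.28433.1.S1_at and Ta.21113.2.S1_x_at had 24 h means of 9679 ± 525 and 10395 ± 704, from 4750 ± 191 and 4475 ± 261 without larvae.

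Among the members, 22 shared a cluster number with another member, in 10 clusters of the 188 represented. Such probe sets often read 1 transcript or close relatives and are not separate findings. The 3 probe sets of Ta.6445 had 24 h changes of 1.88 to 2.09 with 6 h changes of 0.92 to 1.03, and the 3 of Ta.2641 had 24 h changes of 1.34 to 1.41 with 6 h changes of 0.26 to 0.39. The 12 h changes were 1.19 to 1.39 for Ta.6445 and 0.18 to 0.20 for Ta.2641, so the early changes of Ta.2641 were the smaller ones. For all 3 probe sets of Ta.2641, however, Newton 12 h replicates 1 and 2 lay above the uninfested Newton arrays and replicate 3 lay below them. The low 12 h change of Ta.2641 therefore depended on replicate 3, and whether this cluster rose later than Ta.6445 was not tested. The identifiers TaAffx made up 27.5% of members against 48.5% of all probe sets, and Ta 72.5% against 51.4%. The suffix _x_at, given by Affymetrix to probe sets with probes shared between different transcripts, was carried by 13.5% of members and 11.1% of all.

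Between the uninfested sheaths of the lines, Newton was within 0.5 of Molly on the log2 scale for 171 members (95.1% of all probe sets). Probe sets under 85 on all uninfested arrays have a difference of 0 by the floor, and array medians were 78.6 to 101. No uninfested Newton array was under 85 for 138 members, so the shares do not compare probe sets of like signal. The median difference, Newton minus Molly, was -0.14 for the members and 0 for all probe sets, and Newton was the lower for 132 members. Uninfested Newton is the baseline of the change that chose the members, so low values there are favoured by the choice and these values are a description. The highest difference was that of Ta.15881.1.S1_at, with uninfested Newton at least 1.98 above uninfested Molly, where all 3 arrays were under 85. Against the mean of the 4 Molly groups, Newton was higher by a median of 0.40 at 6 h, 0.44 at 12 h (0.69 without Newton 12 h replicate 3) and 1.07 at 24 h, and at 24 h 11 members stayed within 0.5 of that mean.

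The Molly bound removed most of the probe sets with a change of this size. Of 1189 probe sets at or over the limit of the 24 h Newton change, 200 (16.8%) met the bound and 989 did not. Of the 989, 921 had some Molly change above 0.5 and 524 had all 3 above it, while 91 had some below -0.5. Their median changes were 1.29, 0.81 and 0.93 in Molly at 6, 12 and 24 h and 0.89, 0.65 and 1.39 in Newton. The array medians of the 989 in Newton at 12 h were 0.73, 1.11 and 0.09, so replicate 3 was low there as it was among the members.

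Members with a gene name were sought among 102 genes of the annotation that have a symbol or synonym other than a locus number, and 0 were found. Of 11 lists of named genes, 10 had a probe set on the array, 95 in all, of stress, defence, redox, methyl transfer, wall, sugar, growth hormone, chromatin, cytoskeleton and translation genes, and 0 of these were members. At the share of the whole array 0.311 members would fall in lists of this size, so the count of 0 says nothing about the members. The named genes within the Molly bound that came nearest were chosen after their values were seen. They were hsp16.9A, a small heat shock protein gene, with a 24 h change of 0.91 and rank 275, and H+-ATPase, the proton pump of the plasma membrane, with 3 probe sets at 0.69, 0.68 and 0.65. The signal of hsp16.9A (Ta.24332.1.S1_at) was 19.6, 16.1 and 22.8 in uninfested Newton and 187, 257 and 57.6 at 24 h, so its change rests on 2 arrays above 85 against a baseline at background. The signal of the first H+-ATPase probe set, Ta.28364.1.S1_at, was 5418, 5735 and 5217 in uninfested Newton and 8101, 9486 and 8935 at 24 h, with no overlap. The Molly arrays at 24 h read 5994, 5117 and 5486.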

How the data were processed

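The deposited tables hold 1 linear intensity for each probe set and array. MAS5 is named in the submitters' processing notes, and its version and settings were not stated there. The summed signal was 45362605 to 47970527 per array and the median 78.6 to 101, and the number of arrays limits the precision. After 111 controls were set aside, 61179 probe sets remained. Changes that chose the members use signals raised to 85 and log2 group means.

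For the test of Newton 12 h against 6 h, the 40% of probe sets with the lowest mean log2 signal were left out (signal 44.8 at that limit), and log2 signal of all 8 groups entered 1 limma fit (version 3.58.1, R 4.3.3) that estimated each group's mean and let the prior variance depend on intensity, with 16 residual and 4.49 prior degrees of freedom. Its two-sided p-values were adjusted by Benjamini-Hochberg over 36707 probe sets, and the threshold was 0.05. The fit was tested on simulated data.

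The supplied annotation paired 1273 probe sets with 1 gene and 59906 with none; 770 of its 771 genes were in the RefSeq table (assembly IWGSC CS RefSeq v2.1), which gave the names. The text names members paired with a gene, the 6 with the highest 24 h change, up to 3 called members with the largest rise and 3 with the largest fall from 6 to 12 h and a brighter group above the median signal of 308, the 4 brightest in uninfested Newton, those next to the limit, and other probe sets of the named genes. The members and lists were chosen with earlier results of these data known. Alternatives changed the scaling, floor, Molly bound, filter, prior, arrays and covariates.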

Additional observations from a re-analysis of the deposited data

How the results depend on the processing

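The fall of Ta.30495.1.A1_s_at from 6 to 12 h passed the threshold in every setting. With signals under 85 raised to 85, 6 members were lower at 12 h than at 6 h, instead of 3. No called fall turned into a rise. Across fits that left out 1 array, the number of members called higher was 0 to 12 and the number called lower was 1 to 5, and the members' median change was -0.16 to 0.27. That median of 0.045 has no settled sign, being also below 0 with 18S as a covariate (-0.0488), and without Newton 12 h replicate 3 the calls went from 0 higher and 3 lower to 12 higher and 1 lower. TaAffx.104994.1.S1_at lost its call with no filter (adjusted p = 0.06), with arrays centred on their median (0.074), with a constant variance prior (0.06), with 18S as a covariate (0.058), with the replicate block (0.052) and with the 6 Newton arrays alone (0.32). The cause was not tested.

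Newton 6 h and 12 h arrays of the same number had deviations from their group means that correlated at r = -0.08, -0.10 and -0.21. Of the 3 arrays, 0 correlated best with its own number. Deviations within a group of 3 arrays sum to 0, so this check cannot decide whether the numbers mark shared batches. With the replicate number as a block, 0 members were higher and 2 lower (median change 0.045).

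The choice of members depended on its limits. The new choice held 112 of the members with a floor of 40, 100 with a Molly bound of 0.3 and 108 with a bound of 0.8. The median 24 h change of the probe sets chosen was 1.15 with a floor of 150, 0.999 with the bound of 0.3 and 1.41 with the bound of 0.8. Without 1 array of Newton at 24 h or uninfested, 167 to 182 members were chosen again, and without 1 replicate number 131 to 141, with median 24 h changes of 1.19 to 1.26 in the former. In left-out arrays the median was 1.00 to 1.21. Signals within the range of the tag controls limit what the dim members show.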
